A study of Mus musculus with 12 samples.

Results

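The genes of oxidative phosphorylation were followed in bone marrow-derived macrophages, which are macrophages grown from marrow precursors in culture. Members were the protein-coding genes of the deposited count table whose symbols mark them as mitochondrially encoded (mt-) or as parts or assembly factors of complex I (Nduf), complex II (Sdh), complex III (Uqcr), complex IV (Cox) or ATP synthase (Atp5), with a mean of at least 1 CPM (counts per 1e6 counts of the column total). Of 54532 genes in the table, 120 matched by name and 108 passed the level threshold. These were 11 mitochondrially encoded genes and 97 nuclear genes, and all 108 were among the 13800 genes with enough counts to test. The members with the lowest means above the threshold were Sdhaf3 (1.69 CPM), Ndufaf6 (1.93 CPM) and Sdhaf1 (2.12 CPM). The genes nearest below it were mt-Nd3 (0.827 CPM), Cox20 (0.759 CPM) and mt-Atp8 (0.739 CPM), so 2 of the 13 mitochondrially encoded protein genes are not members.

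The marrow came from male mice 8 weeks old of the genotypes Itga9-Lyz2-cKO and Itga9-Lyz2-cHet (shortened to cKO and cHet), names that point to the integrin gene Itga9 and the macrophage lysozyme gene Lyz2. Both carry this name, so the genotypes were compared with each other and not with a wild type. Every culture received 50 ng/mL M-CSF, under which marrow precursors become macrophages. One group of each genotype was then exposed for 2 hours to Pg, as the labels name the agent (multiplicity of infection 1:20), and the others were controls. The 4 groups (cKO with Pg, cKO control, cHet with Pg, cHet control) held 3 libraries of poly-A RNA each, and nothing in the labels says whether these came from separate mice, so p-values measure only the spread between libraries, which may be technical.

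Oxidative phosphorylation is carried out in the inner mitochondrial membrane. Complexes I and II feed electrons to ubiquinone, complexes III and IV pass them through cytochrome c to oxygen, and ATP synthase uses the proton gradient that complexes I, III and IV build. The mitochondrial genome encodes core subunits of every complex except complex II, and all other subunits and the factors that assemble them are encoded in the nucleus. The mitochondrial genes are read by their own RNA polymerase, while factors such as NRF1, the ETS protein GABP, YY1 and estrogen-related receptors are known to act on promoters of the nuclear genes. In macrophages, inflammatory stimuli are known to shift metabolism from respiration towards glycolysis.

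Library totals ran from 14527674 to 16793803 counts. Members took little of this depth: the mitochondrially encoded genes held 0.898% to 1.37% of the counts of a library and the nuclear members 0.391% to 0.484%. Itga9 was at 13.6, 11.6 and 7.84 CPM in cKO libraries with Pg and at 11.5, 5.98 and 6.42 CPM in cKO controls, against 19.4, 34.0 and 33.4 CPM in cHet libraries with Pg and 32.3, 17.9 and 18.9 CPM in cHet controls. The highest cKO library thus lay below the lowest cHet library. All 10 macrophage markers averaged at least 1 CPM, with a summed level of 32780 to 51850 CPM. This threshold does not tell cell types apart. It was also passed by 9 of 10 neutrophil markers (586 to 1014 CPM summed) and 4 of 4 monocyte markers (103 to 160 CPM). The same held for 6 of 7 dendritic cell markers (42.9 to 149 CPM) and 5 of 5 B and plasma cell markers (10.7 to 18.7 CPM). In each group 1 library stood apart from the other two: the chi-square per gene was 12.8 to 17.2 in pairs with that library and 2.59 to 5.31 in the remaining pair. These were cKO with Pg 3, cKO control 1, cHet with Pg 1 and cHet control 1, and the dendritic cell and macrophage gene Itgax also separated them (48.0 against 103 and 121 CPM, 125 against 42.4 and 45.1 CPM, 59.3 against 137 and 132 CPM, and 115 against 37.0 and 36.2 CPM). The library apart had the highest Itgax level of its group in controls and the lowest with Pg. Libraries with high Itgax were thus fewer in controls than with Pg in both genotypes. This difference is partly confounded with Pg, and its part in the changes below was not tested.

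The mitochondrially encoded members were far from equally abundant in the table. Per kilobase of gene length, mt-Co1, the catalytic subunit of complex IV, had the highest mean level (4036 CPM per kb), and mt-Cytb of complex III followed at 1451 CPM per kb. The complex I subunits mt-Nd1 (892 CPM per kb), mt-Nd5 (883 CPM per kb), mt-Nd6 (714 CPM per kb), mt-Nd4 (642 CPM per kb) and mt-Nd2 (519 CPM per kb) formed a middle range. The remaining 4 members were much lower: mt-Co2, the copper-binding subunit of complex IV, averaged 41.2 CPM per kb, mt-Atp6 of ATP synthase 25.8, mt-Co3 of complex IV 22.9 and mt-Nd4l of complex I 8.58. In consequence mt-Co1 alone made up 49.9% to 52.6% of the summed level of the 11 genes in every library.

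The 4 lowest members were also those of which nearly all sequence occurs in nuclear transcripts. In the GENCODE M21 transcripts for mm10, every 100-base window of a mitochondrial transcript was looked up in all transcripts of nuclear genes. The share of windows found there was 99.9% for mt-Co3, 99.5% for mt-Co2 and mt-Atp6, 98.5% for mt-Nd4l and 97.6% for mt-Nd3. It was 60.8% for mt-Nd4, 30.8% for mt-Co1 and 3.19% for mt-Nd2, and 0 for mt-Nd1, mt-Nd5, mt-Nd6, mt-Cytb and mt-Atp8. The fullest copies of mt-Co2, mt-Co3, mt-Atp6, mt-Nd3 and mt-Nd4l are annotated pseudogenes in a row on the minus strand of chromosome 1. This row runs from Gm28439 at chr1:24611535-24612410 to Gm29216 at chr1:24615706-24616197. Other copies lie elsewhere, such as Gm13340 on chromosome 2. Over the aligned bases, Gm28437 had 0 mismatches to mt-Co3 (783 bases), Gm28661 had 0 to mt-Co2 (681 bases), Gm10925 had 0 to mt-Atp6 (678 bases) and Gm10222 had 0 to mt-Nd4l (294 bases). The treatment of reads that match several places is not given in the sources used here, so levels of mt-Co2, mt-Atp6, mt-Co3 and mt-Nd4l are uncertain. In part this also holds for mt-Nd4 and mt-Co1. The share depends on window length: for mt-Co1 it was 51.1% with 50-base windows and 23.6% with 150-base windows. For mt-Nd5 it was 7.61% with 50-base windows.

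The first 90 bases of mt-Co3 (MT, positions 8607 to 8696 of mm10, plus strand) show the case of a full copy: the same letters stand in Gm28437 (chr1:24613882-24613971, minus strand). A stretch of mt-Co1 (MT, positions 6128 to 6217, plus strand) and of its copy Gm13340 (chr2:22588758-22588847, minus strand) shows the other case, in which single bases, given in capitals, tell them apart. Over its whole length of 1545 bases Gm13340 differs from mt-Co1 at 37 bases.
mt-Co3: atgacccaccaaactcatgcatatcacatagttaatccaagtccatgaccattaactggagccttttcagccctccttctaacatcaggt
mt-Co1: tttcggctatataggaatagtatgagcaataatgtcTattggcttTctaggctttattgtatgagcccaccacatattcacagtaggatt
Gm13340: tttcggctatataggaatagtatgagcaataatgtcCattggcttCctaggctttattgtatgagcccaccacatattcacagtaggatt

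**Figure D1:**
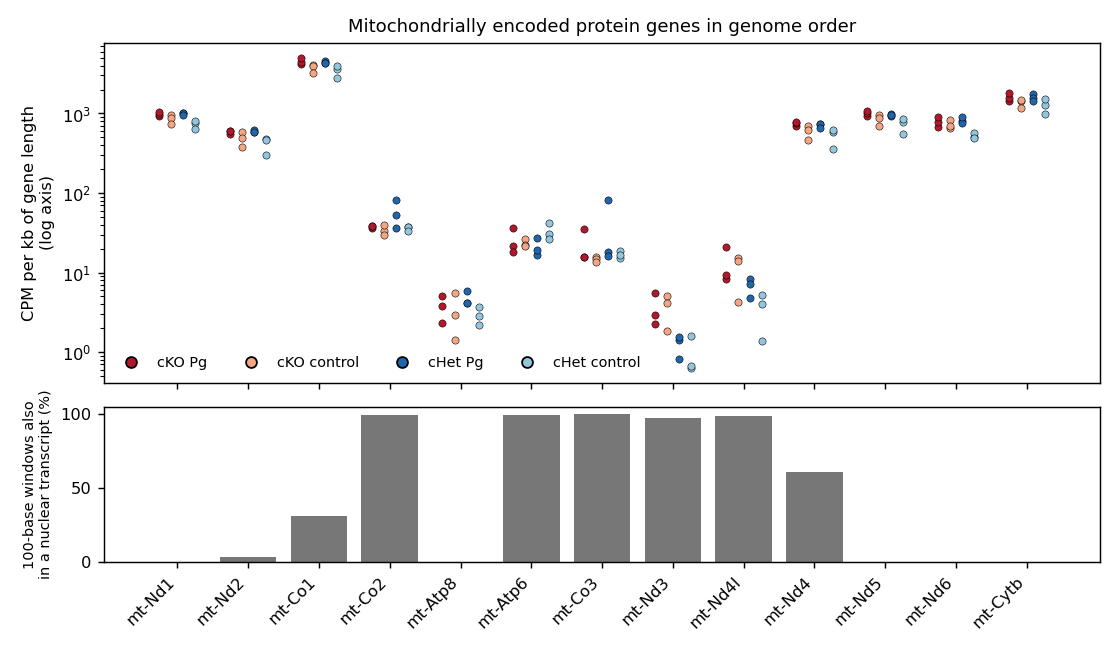
Level of the mitochondrially encoded protein genes in CPM per kb of gene length on a log axis (upper panel; 1 point per library, coloured by group; genes in genome order, with mt-Atp8 and mt-Nd3, which are below the threshold of membership, included) and the percent of their 100-base windows also found in a nuclear transcript (lower panel). The genes with over 97% shared windows all lie below 100 CPM per kb, and mt-Atp8 is low with no shared window.

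With Pg, and with TMM factors (trimmed mean of M-values) applied to library sizes, the summed level of the 11 mitochondrially encoded members averaged more than in controls, without overlap in cHet macrophages and with overlap in cKO macrophages, while the sum of the 97 nuclear members moved little. Without that scaling the mitochondrial sums overlapped in both genotypes. In cKO libraries the mitochondrial sum was 12646, 13648 and 14915 CPM with Pg, against 12761, 11901 and 9788 CPM in controls, and the groups overlapped. In cHet libraries it was 14020, 13156 and 13018 CPM with Pg, against 10794, 8225 and 11781 CPM in controls, and every library with Pg lay above every control. As a plain percent of a library's counts (library size alone), the 11 genes held 1.18%, 1.25% and 1.37% in cKO with Pg, against 1.37%, 1.31% and 1.07% in cKO controls, with nearly equal means of 1.26% and 1.25%. In cHet they held 1.27%, 1.21% and 1.20% with Pg, against 1.15%, 0.898% and 1.28% in controls (means 1.23% and 1.11%), so cHet control 3 lay above every Pg library. The nuclear sum averaged 4332 ± 80.8 CPM with Pg and 4288 ± 143 CPM in controls of cKO cells (SD, n = 3 each), a ratio of 1.01. In cHet cells it averaged 4439 ± 109 CPM with Pg and 4128 ± 115 CPM in controls (SD, n = 3 each), a ratio of 1.08. The cHet groups did not overlap, but with library size alone the direction turned, at 4063 CPM with Pg and 4476 CPM in controls.

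The ratio of the mitochondrial to the nuclear sum does not depend on how libraries are scaled. It was 2.94, 3.20 and 3.37 in cKO libraries with Pg, against 3.07, 2.78 and 2.21 in cKO controls, so 1 control lay within the range of the Pg libraries. It was 3.07, 3.01 and 2.97 in cHet libraries with Pg, against 2.68, 1.93 and 2.88 in cHet controls, and the groups did not overlap. The log2 ratio was higher with Pg by 0.25 ± 0.17 in cKO and by 0.29 ± 0.17 in cHet (difference ± SE from the pooled SD of 0.203, n = 3 libraries a group). The difference between these changes (cKO minus cHet) was -0.05 ± 0.23, smaller than its error. The pooled SD mixes unequal spreads of the log2 ratio. The SD was 0.101 in cKO with Pg and 0.246 in cKO controls, and 0.0253 in cHet with Pg and 0.305 in cHet controls. No p-value is given, because the sums run over genes chosen with results of these libraries known. The lowest control of each genotype carried much of the change: without cKO control 3 it was 0.11 in cKO, and without cHet control 2 it was 0.12 in cHet. Without the library of the pair of groups that stood apart, the change stayed higher with Pg (0.35 without cKO control 1, 0.20 without cKO with Pg 3, 0.36 without cHet control 1 and 0.28 without cHet with Pg 1). Leaving out 1 such library widens the Itgax imbalance between Pg and control, so these values are no check of it.

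**Figure D2:**
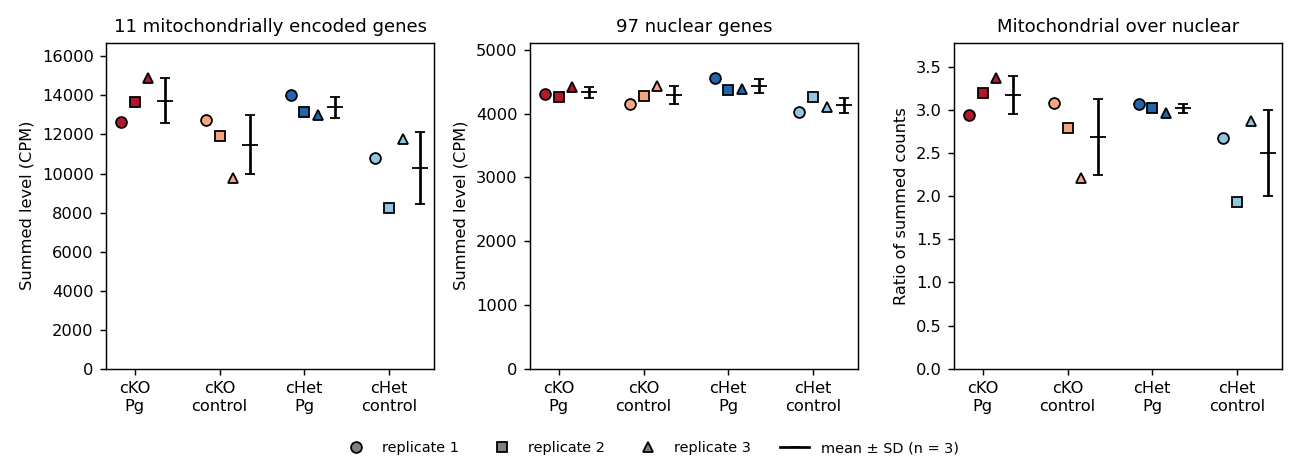
Summed level in CPM of the 11 mitochondrially encoded members (left), of the 97 nuclear members (middle), and the ratio of the summed counts (right), with 1 symbol per library and mean ± SD of 3 libraries beside them. The ratio in cHet libraries with Pg (2.97 to 3.07) lies above all 3 cHet controls (1.93 to 2.88), whereas the cKO groups overlap.

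Single mitochondrial genes were tested across all genes with edgeR's quasi-likelihood test and Benjamini-Hochberg adjustment over the 13800 tested genes, which is the test behind every adjusted p here, with a threshold of 0.05. Of the 11 members, 0 were called with Pg in cKO and 4 rose in cHet, where 36.1% of all tested genes were called (18% higher and 18% lower). In cKO 34% of all tested genes were called (16.9% higher and 17.1% lower). By unadjusted p under 0.05, 2 of the 11 were past the threshold in cKO, where 42.5% of all tested genes were, and 7 in cHet, where 44.1% were. The median log2 change of the 11 was 0.24 in cKO and 0.46 in cHet, beside medians of -0.0043 and -0.0068 over all tested genes. With library size alone it was -0.008 in cKO and 0.217 in cHet, beside -0.247 and -0.251 over all tested genes. Of the 4 rises in cHet, that of mt-Nd6 was then still called, while mt-Nd1 (0.18, adjusted p = 0.089), mt-Nd2 (0.29, adjusted p = 0.19) and mt-Co1 (0.11, adjusted p = 0.47) were not.

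mt-Nd6, the complex I subunit encoded on the strand opposite to the other members (MT, positions 13552 to 14070), had the smallest adjusted p of the 11 in cHet cells: 414, 388 and 475 CPM with Pg, against 265, 293 and 253 CPM in controls (log2 change 0.65 ± 0.11 SE, adjusted p = 0.00052). In cKO cells it was at 352, 402 and 466 CPM with Pg, against 434, 343 and 358 CPM in controls, and the groups overlapped (log2 change 0.10 ± 0.11, adjusted p = 0.54). The strand setting of the counting is not given in the sources used here, and reads of mt-Nd6 and of RNA from the other strand cannot be told apart without it. mt-Nd1, a membrane subunit of complex I, was at 894, 946 and 995 CPM in cKO with Pg, against 910, 830 and 715 CPM in cKO controls, and at 965, 965 and 909 CPM in cHet with Pg, against 736, 610 and 766 CPM in cHet controls. The cHet groups did not overlap (log2 change 0.43 ± 0.09, adjusted p = 0.0014) and the cKO groups did (0.21 ± 0.09, adjusted p = 0.088).

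mt-Co1 was at 6420, 6933 and 7658 CPM in cKO with Pg, against 6369, 6017 and 5017 CPM in cKO controls. In cHet cells it was at 7075, 6658 and 6677 CPM with Pg, against 5569, 4324 and 6108 CPM in controls. All Pg libraries of both genotypes lay above their own controls, and the test called the cHet change alone (0.35 ± 0.12, adjusted p = 0.034, against 0.27 ± 0.12, adjusted p = 0.097 in cKO). mt-Nd2, a further membrane subunit of complex I, was at 603, 638 and 607 CPM in cHet with Pg, against 489, 316 and 475 CPM in cHet controls (0.53 ± 0.18, adjusted p = 0.039). In cKO it was at 573, 623 and 629 CPM with Pg, against 605, 514 and 397 CPM in controls (0.27 ± 0.17, adjusted p = 0.28). The call of mt-Co1 in cHet was lost without any 1 of 5 libraries (all but cHet control 3; adjusted p up to 0.11). That of mt-Nd2 was lost without cHet control 2 or any 1 Pg library (adjusted p up to 0.10).

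The other abundant members had positive log2 changes that missed the threshold in both genotypes: 0.25 and 0.40 for mt-Nd5, 0.33 and 0.46 for mt-Nd4, and 0.24 and 0.32 for mt-Cytb, with the cKO value given before the cHet value. Among the members with nuclear copies, mt-Atp6 was at 14.9, 12.4 and 25.0 CPM in cKO with Pg, against 17.9, 15.1 and 14.9 CPM in cKO controls, and at 18.6, 11.4 and 13.3 CPM in cHet with Pg, against 20.6, 17.8 and 28.8 CPM in cHet controls. It was the only member of the 11 with a negative change in cHet (-0.63 ± 0.28, adjusted p = 0.11), and with library size alone this was called as a fall (-0.88 ± 0.28, adjusted p = 0.023). mt-Co3 had single high libraries, 27.7 beside 12.3 and 12.3 CPM in cKO with Pg and 63.2 beside 14.0 and 12.5 CPM in cHet with Pg, against 10.5 to 12.3 CPM in cKO controls and 11.9 to 14.5 CPM in cHet controls. mt-Co2 was likewise higher in 2 cHet libraries with Pg (35.9 and 55.7 CPM) than in the third (25.1 CPM) and in cHet controls (23.0 to 25.9 CPM). mt-Nd4l lay between 2.49 and 6.19 CPM in cKO with Pg and 1.28 and 4.52 CPM in cKO controls, and between 1.41 and 2.46 CPM in cHet with Pg and 0.408 and 1.56 CPM in cHet controls.

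A smaller share of the nuclear members than of all tested genes was called. With Pg, 3 of 97 fell and 0 rose in cKO, which is 3.09% beside 34% of all tested genes, and 16 rose and 3 fell in cHet, which is 19.6% beside 36.1%. Their median log2 change was -0.05 in cKO and 0.07 in cHet. Counted without a test, 8 of the 108 members had all Pg libraries above all controls and 10 all below in cKO, beside 22% and 23.1% of all tested genes. In cHet 31 were entirely above and 7 entirely below, beside 22.9% and 24.3% of all tested genes. Without the library that stood apart, the number of members called was 2 without cKO control 1, 2 without cKO with Pg 3, 23 without cHet control 1 and 18 without cHet with Pg 1, against 3 in cKO and 23 in cHet with all libraries. As for the ratio, this does not balance Itgax levels between Pg and control.

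The direction of the nuclear changes depended on scaling. Pg libraries had lower scaling factors than controls, and with library size alone in place of the TMM factors the median change of all tested genes moved by -0.243 in cKO and -0.244 in cHet. The share of calls that were higher then fell to 18.7% in cKO and 19.1% in cHet, against 49.7% and 50% with TMM. Members called under that scaling were 0 higher and 54 lower in cKO and 2 higher and 25 lower in cHet. The 2 still higher in cHet were mt-Nd6 (0.41) and the complex I subunit Ndufa1 (0.30), and the 3 falls called in cHet and the 3 in cKO kept their direction and call. Rises of members, nuclear and mitochondrial, are therefore relative to the other genes of the library.

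**Figure D3:**
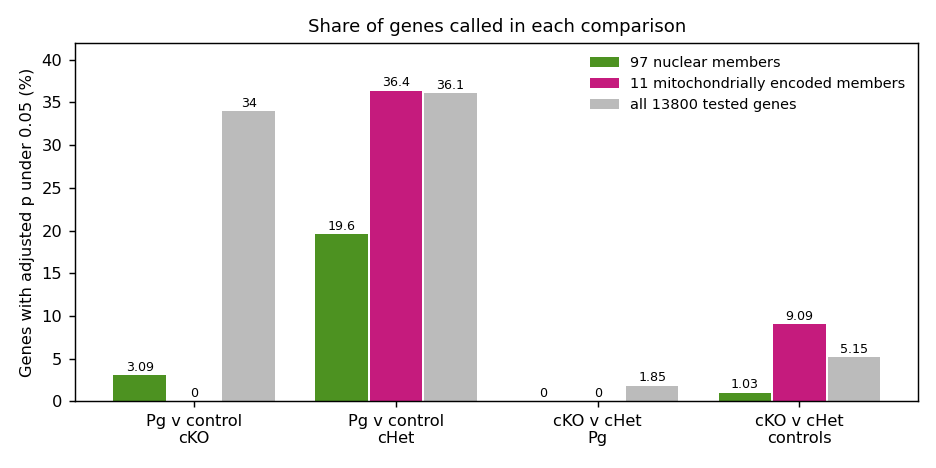
Percent of genes with adjusted p under 0.05 in 4 comparisons, for the nuclear members, the mitochondrially encoded members and all tested genes. Nuclear members were called in 3.09% (cKO) and 19.6% (cHet) of cases with Pg, below the 34% and 36.1% of all tested genes.

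Calls of subunits were rises and calls of assembly factors were mostly falls, at shares close to or below those of all tested genes. Of the 77 nuclear structural subunits, 0 rose and 0 fell with Pg in cKO, and 15 rose and 0 fell in cHet, where 19.5% of subunits and 18% of all tested genes rose. Of the 20 assembly factors, which insert cofactors or join subunits and are not parts of the finished complexes, 0 rose and 3 fell in cKO, and 1 rose and 3 fell in cHet. The falls are 15% of the factors in each genotype, beside 17.1% of all tested genes in cKO and 18% in cHet. With library size alone, 0 subunits rose and 43 fell in cKO, and 1 rose and 15 fell in cHet. The median log2 change was -0.03 for subunits and -0.18 for assembly factors in cKO, and 0.13 and -0.14 in cHet. Across the 97 nuclear members in cHet, log2 change and gene length had a Spearman correlation of -0.339 (-0.059 across all tested genes). This is a description across genes, which are not independent. The median length of the nuclear members that rose was 1172.5 bases, against 1801 bases for all 97. In cKO the correlation was -0.006. The 93 genes of cytosolic ribosomal proteins gave 2 rises and 2 falls in cKO and 17 rises and 3 falls in cHet, and the part of transcript length in these results was not tested.

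**Figure D4:**
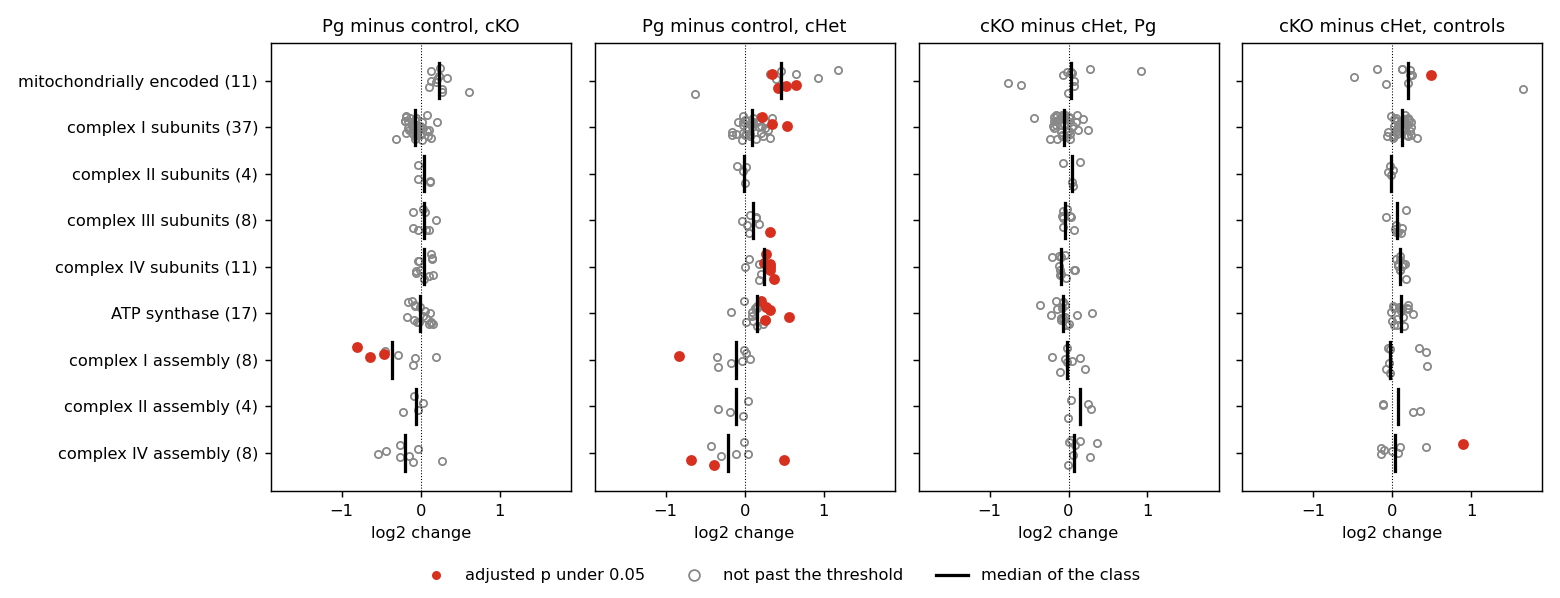
Log2 change of each member by class (number of members in brackets) for Pg minus control and for cKO minus cHet, 1 circle per gene, filled red where the adjusted p was under 0.05, with the class median as a bar. Red circles lie to the right for complex IV subunits (6) and ATP synthase (5) in cHet with Pg, none of them called as rises with library size alone, and to the left for complex I assembly factors (3 in cKO, 1 in cHet).

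Complex IV, cytochrome c oxidase, had the most called subunits: 6 of its 11 nuclear subunits rose in cHet with Pg and 0 in cKO. These are 54.5% beside 18% of all tested genes in cHet, and 0 beside 16.9% in cKO. With library size alone 0 rose in either, and 4 fell in cKO. Cox8a (chr19:7215158-7217616), one of the small subunits, was at 94.6, 84.2 and 96.1 CPM in cHet with Pg, against 73.3, 68.9 and 69.6 CPM in cHet controls (log2 change 0.38 ± 0.07, adjusted p = 0.00031). In cKO it was at 87.3, 84.9 and 85.0 CPM with Pg, against 78.8, 81.4 and 72.1 CPM in controls, again without overlap but not past the threshold (0.15 ± 0.07, adjusted p = 0.11). Cox6b1, a small subunit on the intermembrane side, was at 60.8, 66.1 and 64.0 CPM in cHet with Pg, against 51.6, 52.4 and 48.6 CPM in controls (0.32 ± 0.07, adjusted p = 0.0012). The other rises in cHet were Cox7c (0.32), Cox7a2 (0.32), Cox7b (0.27) and Cox6a1 (0.24), all of them small subunits around the core. The calls of Cox7a2 and Cox7b were lost without cHet control 2 (adjusted p = 0.078 and 0.064), that of Cox7a2 also without cHet with Pg 1, and that of Cox7b also without cHet control 3 or cHet with Pg 2. Cox4i1, a regulatory subunit, was at 269, 228 and 240 CPM in cHet with Pg, against 216, 254 and 237 CPM in controls (0.06 ± 0.08).

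The macrophages carried mostly the widely expressed isoforms of complex IV. For each pair of isoforms, the counts over all 12 libraries of the tissue-restricted one, known from muscle, lung or testis, not corrected for gene length, were a small share of the pair: 0.0395% for Cox8b beside Cox8a, 0.0485% for Cox4i2 beside Cox4i1, 0.656% for Cox6a2 beside Cox6a1, 0.839% for Cox6b2 beside Cox6b1 and 2.02% for Cox7a1 beside Cox7a2. Ndufa4l2, known as a target of hypoxia signalling, made up 0.17% of its pair with Ndufa4. Cox8c was at 0 counts. Cox7a2l, known for joining complexes into supercomplexes, averaged 162 CPM per kb, close to the 156 CPM per kb of Cox4i1.

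Among the 8 assembly factors of complex IV, 6 had negative log2 changes with Pg in cHet cells, and the 2 called falls were of factors that make its heme. The rise of the subunits beside these falls depended on TMM scaling. With library size alone, 5 of the 8 factors fell in cHet (median -0.449), while the 11 subunits had 0 calls and a median of -0.002. Cox10 (chr11:63962627-64079468), which adds a farnesyl group to heme, was at 7.10, 7.82 and 7.77 CPM in cHet with Pg, against 12.6, 11.5 and 12.1 CPM in controls, and fell (-0.68 ± 0.13, adjusted p = 0.0005). In cKO it was at 7.93, 10.6 and 8.81 CPM with Pg, against 11.5, 10.6 and 10.6 CPM in controls (-0.26 ± 0.13, adjusted p = 0.13). Cox15, which acts after it in making heme A, was at 21.8, 23.6 and 23.0 CPM in cHet with Pg, against 28.8, 31.3 and 29.8 CPM in controls (-0.39 ± 0.08, adjusted p = 0.0011). In cKO Cox15 was at 25.8, 25.8 and 23.9 CPM with Pg, against 30.1, 26.7 and 26.9 CPM in controls (-0.15 ± 0.08, adjusted p = 0.18). For both genes all Pg libraries of cHet cells were below all cHet controls. Cox17, the copper chaperone of complex IV, was the one assembly factor that rose in cHet (0.49 ± 0.16, adjusted p = 0.021), and this call was lost without cHet control 2, cHet with Pg 1 or cHet with Pg 2 (adjusted p up to 0.093).

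ATP synthase had 5 rises among 17 genes in cHet (29.4%, beside 18% of all tested genes) and 0 in cKO (beside 16.9%). With library size alone it had 0 rises in either, with 8 falls in cKO and 1 in cHet. Atp5k (chr5:108433244-108434448), a small membrane subunit, was at 11.7, 10.5 and 13.7 CPM in cHet with Pg, against 7.68, 9.38 and 7.35 CPM in controls (0.56 ± 0.16, adjusted p = 0.0096). Without cHet with Pg 3 its adjusted p was 0.061. In cKO it was at 7.80, 10.7 and 9.43 CPM with Pg, against 8.51, 9.66 and 11.1 CPM in controls, with overlap (-0.07 ± 0.16). Atp5b, the catalytic beta subunit, was at 360, 378 and 395 CPM in cHet with Pg, against 330, 321 and 299 CPM in controls (0.25 ± 0.07, adjusted p = 0.0077). Atp5g3, a gene for the rotating c ring, was at 78.6, 81.4 and 80.2 CPM in cHet with Pg, against 64.8, 69.4 and 65.1 CPM in controls (0.27 ± 0.06, adjusted p = 0.0019). Atp5l (0.32) and Atp5f1 (0.20), membrane and stalk subunits, completed the rises, and both lost the call without cHet with Pg 1 (adjusted p = 0.072 and 0.076). Atp5a1, the alpha subunit (138 CPM per kb on average), was not called (log2 change 0.11 in cKO and 0.13 in cHet).

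Complex I had 37 subunit genes, of which 0 were called in cKO and 3 rose in cHet. The rises are 8.11% of them, below the 18% of all tested genes in cHet, and 0 beside 16.9% in cKO. With library size alone 0 rose and 25 fell in cKO, and 1 rose and 8 fell in cHet. Ndufa1 (chrX:37187588-37191163), a small membrane subunit, was at 27.9, 22.1 and 21.9 CPM in cHet with Pg, against 16.6, 15.8 and 17.1 CPM in controls (0.54 ± 0.11, adjusted p = 0.0013). In cKO it was at 17.7, 16.1 and 19.4 CPM with Pg, against 17.6, 17.8 and 21.1 CPM in controls, with overlap (-0.08 ± 0.12). The other rises were Ndufa3 (0.34) and Ndufa4 (0.22), of which the second is grouped here by its name and is known in human as a subunit of complex IV. The call of Ndufa3 was lost without cHet control 1 or 2 or cHet with Pg 1 or 2 (adjusted p up to 0.26), and that of Ndufa4 without cHet control 2 or 3 or cHet with Pg 1 or 3 (up to 0.086).

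The assembly factors of complex I gave the falls in cKO cells. Ndufaf1 (chr2:119655446-119662827), which helps to build the membrane arm, was the 1 nuclear member called in both genotypes. It was at 4.57, 3.27 and 4.68 CPM in cKO with Pg, against 6.13, 6.54 and 6.89 CPM in cKO controls (-0.64 ± 0.19, adjusted p = 0.016), and at 4.64, 3.87 and 2.81 CPM in cHet with Pg, against 6.46, 7.63 and 6.10 CPM in cHet controls (-0.84 ± 0.20, adjusted p = 0.0028). All Pg libraries were below all controls of their genotype, and the cKO call was also lost without cKO with Pg 2 (adjusted p = 0.086). Ndufaf6, a further assembly factor at low counts, was at 1.28, 1.85 and 1.38 CPM in cKO with Pg, against 2.80, 2.55 and 2.51 CPM in controls (-0.80 ± 0.30, adjusted p = 0.045). Ndufaf7, a methyltransferase needed to assemble complex I, was at 6.66, 6.90 and 4.75 CPM in cKO with Pg, against 8.87, 7.04 and 9.40 CPM in controls (-0.47 ± 0.16, adjusted p = 0.034). In cHet their changes were -0.35 and -0.34 and missed the threshold. In cKO both calls were also lost without cKO control 1 or cKO with Pg 3, and that of Ndufaf6 without cKO control 2 or cKO with Pg 1 (adjusted p up to 0.16). Without cKO control 3, 0 members were called in cKO, with adjusted p of 0.056 for Ndufaf1, 0.080 for Ndufaf6 and 0.14 for Ndufaf7. Cox20, the complex IV assembly factor just below the threshold of membership, also fell in cKO (-1.52 ± 0.50, adjusted p = 0.025).

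Complexes II and III gave 1 call between them. None of the 4 subunit genes of succinate dehydrogenase (complex II) was called: Sdha, its flavoprotein, was at 198, 190 and 185 CPM in cKO with Pg, against 195, 194 and 195 CPM in cKO controls, and at 184, 187 and 185 CPM in cHet with Pg, against 200, 200 and 195 CPM in cHet controls. Its cHet groups did not overlap, at a log2 change of -0.10 ± 0.05 (adjusted p = 0.16). Sdhb, the iron-sulfur subunit, had a log2 change of 0.12 ± 0.08 in cKO and -0.02 ± 0.08 in cHet. The 4 assembly factors of complex II gave 0 calls. By unadjusted p under 0.05, the 4 subunits gave 0 in either genotype and the 4 factors 0 in cKO and 1 in cHet. In complex III, 1 of 8 genes rose in cHet (12.5%, beside 18% of all tested genes) and 0 in cKO. That gene, Uqcrq, a small subunit, was at 34.2, 41.4 and 41.2 CPM in cHet with Pg, against 34.1, 31.0 and 28.5 CPM in controls (0.32 ± 0.09, adjusted p = 0.013). Its call was lost without cHet control 3, cHet with Pg 2 or cHet with Pg 3 (adjusted p up to 0.076). Uqcrc1, a core protein, had a log2 change of 0.03 in cKO and 0.04 in cHet.

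Although more members were called in cHet than in cKO, the difference between the genotypes' responses was itself called for 0 of the 108 members, beside 0.717% of all tested genes. By unadjusted p under 0.05 it was past the threshold for 15 members (13.9%), near the 12.6% of all tested genes, and DESeq2 called 2. The median of this difference (cKO minus cHet) was -0.22 over the mitochondrially encoded members and -0.13 over the nuclear members, and all 11 complex IV subunits had a negative value. This sign was not particular to complex IV. It was shared by 16 of 17 ATP synthase genes, 33 of 37 complex I subunits and 83 of 93 cytosolic ribosomal protein genes. Over all tested genes it was negative for 6977 of 13800. Genes measured in the same libraries are not independent. The 2 Pg comparisons share no libraries. Erythroid markers were lower with Pg in summed level, without a test: their summed level was 5.12 to 13.8 CPM in cKO with Pg, against 12.3 to 19.9 CPM in cKO controls, and 12.6 to 21.4 CPM in cHet with Pg, against 23.9 to 31.6 CPM in cHet controls. The part of these cells in the changes above was not tested. In bulk RNA, fewer cells of a type and less RNA per cell cannot be told apart.

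Few members differed between the genotypes. Between cKO and cHet controls 2 of 108 members were called, both higher, beside 5.15% of all tested genes (2.13% higher and 3.02% lower). Under Pg 0 of 108 were called, beside 1.85% of all tested genes (5 members by unadjusted p under 0.05, beside 12.2% of all tested genes; DESeq2 called 0). For the mean of both genotype differences 1 was called, beside 4.91%. Without a test, 10 members had all cKO controls above all cHet controls and 0 all below, beside 11.8% and 11.7% of all tested genes. With Pg, 4 members were entirely above and 7 entirely below in cKO, beside 9.04% and 8.51%.

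Cox17 (chr16:38346991-38352763) was the clearest genotype difference. It was at 7.32, 7.98 and 7.12 CPM in cKO controls, against 4.01, 3.49 and 4.54 CPM in cHet controls (log2 change 0.90 ± 0.15, adjusted p = 0.0019). With Pg it was at 7.80, 7.40 and 6.60 CPM in cKO, against 5.90, 5.91 and 5.16 CPM in cHet, without overlap but not past the threshold (0.36 ± 0.15, adjusted p = 0.33). The mean genotype difference was 0.63 ± 0.11 (adjusted p = 0.0014), and every cKO library was above every cHet library. In the annotation 4.45% of the exon bases of Cox17 also belong to Gm21987 on the same strand. mt-Nd6 was at 434, 343 and 358 CPM in cKO controls, against 265, 293 and 253 CPM in cHet controls (0.48 ± 0.11, adjusted p = 0.027). With Pg it was at 352, 402 and 466 CPM in cKO, against 414, 388 and 475 CPM in cHet (-0.07 ± 0.11). The cHet controls serve in this comparison and in that of Pg in cHet, so the 2 changes of mt-Nd6 and of Cox17 share their low values. The mt-Nd6 call was lost without cKO control 1 or 3 or cHet control 1 or 3 (adjusted p up to 0.12), whereas that of Cox17 held without any 1 library.

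The log2 difference of the mitochondrial to nuclear ratio between genotypes was 0.11 ± 0.17 in controls, less than its error, and -0.06 without cHet control 2. With Pg it was 0.07 ± 0.17, but this SE comes from the SD pooled over all 4 groups. The Pg groups had smaller SDs of the log2 ratio (0.101 in cKO and 0.0253 in cHet), so this SE does not measure the error of their difference. With Pg the ratios of the 2 genotypes overlapped (2.94 to 3.37 in cKO and 2.97 to 3.07 in cHet). Stromal cell markers moved with genotype in these cultures. The 14 markers summed to 4.55 to 6.19 CPM in cKO with Pg and 2.80 to 3.62 CPM in cKO controls, against 37.0 to 48.1 CPM in cHet with Pg and 37.6 to 41.5 CPM in cHet controls, and Lum was at 0 in every library. Their part in the differences of Cox17 and mt-Nd6 was not tested. Lyz2 was also lower in every cKO library, at 8746 to 10978 CPM against 17628 to 22005 CPM in cHet.

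Several genes that read and maintain mitochondrial DNA fell with Pg in both genotypes, whereas 0 of the 11 mitochondrially encoded members fell in either (1, mt-Atp6 in cHet, with library size alone). In a list of 22 tested regulators of mitochondrial transcription, replication and biogenesis, 3 rose and 10 fell in cKO, and 2 rose and 8 fell in cHet, with medians of -0.24 and -0.15. The falls are 45.5% and 36.4% of the list, beside 17.1% and 18% of all tested genes, and the rises 13.6% and 9.09%, beside 16.9% and 18%. With library size alone 1 rose and 15 fell in cKO and 0 rose and 14 fell in cHet. Polrmt, the mitochondrial RNA polymerase, was at 6.46, 8.54 and 4.68 CPM in cKO with Pg, against 12.6, 13.0 and 15.1 CPM in cKO controls (-1.05 ± 0.17, adjusted p = 0.00013), and at 5.83, 7.46 and 7.37 CPM in cHet with Pg, against 14.3, 14.9 and 14.0 CPM in cHet controls (-1.06 ± 0.17, adjusted p = 9.6e-05). Tfam, which packages mitochondrial DNA and opens its promoters, was at 6.79, 7.90 and 6.74 CPM in cKO with Pg, against 14.7, 14.0 and 15.7 CPM in controls (-1.05 ± 0.13, adjusted p = 8.7e-06). In cHet Tfam was at 7.38, 9.36 and 7.37 CPM with Pg, against 13.0, 15.7 and 14.1 CPM in controls (-0.83 ± 0.13, adjusted p = 9.2e-05). For both genes no Pg library reached the level of a control.

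Tfb2m, the initiation partner of the polymerase, fell in cKO (-0.99 ± 0.20, adjusted p = 0.00085) and in cHet (-0.64 ± 0.20, adjusted p = 0.017). Tfb1m, a related factor that methylates ribosomal RNA, fell in cHet (-0.98 ± 0.35, adjusted p = 0.040) and was not called in cKO (-0.70 ± 0.35, adjusted p = 0.14). Twnk, the replicative helicase, fell by 0.87 and 0.93 on the log2 scale in cKO and cHet. Ppargc1b, a coactivator of nuclear genes for respiration, was at 1.14, 1.21 and 0.963 CPM in cKO with Pg, against 2.86, 2.55 and 2.45 CPM in cKO controls (-1.24 ± 0.26, adjusted p = 0.0011), and at 0.562, 0.845 and 0.938 CPM in cHet with Pg, against 4.56, 3.73 and 4.54 CPM in cHet controls (-2.44 ± 0.26, adjusted p = 1.2e-06). The difference between these 2 changes was 1.20 ± 0.37 and was not called (adjusted p = 0.17). Gabpa, the DNA-binding subunit of GABP, rose by 0.20 in cKO and 0.29 in cHet, and its direction in cKO turned to -0.05 with library size alone.

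**Figure D5:**
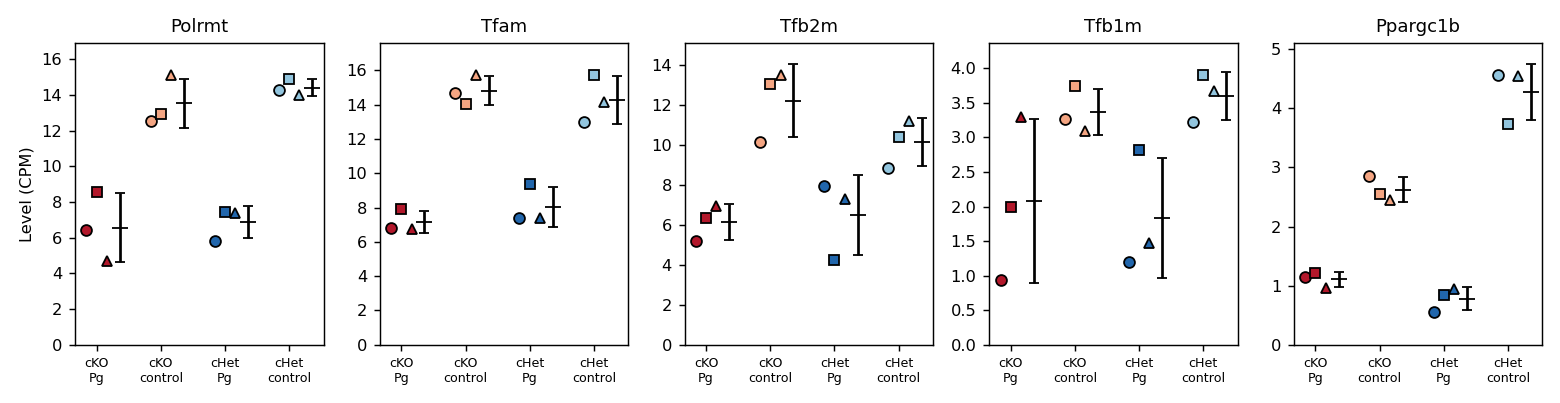
Level in CPM of Polrmt, Tfam, Tfb2m, Tfb1m and Ppargc1b, with 1 symbol per library (circle, square and triangle for replicates 1 to 3) and mean ± SD of 3 libraries beside them. Polrmt in the 6 Pg libraries ranged up to 8.54 CPM, below the lowest control at 12.6 CPM.

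Lists of other mitochondrial genes gave counts that are read beside all tested genes, of which 16.9% rose and 17.1% fell in cKO and 18% rose and 18% fell in cHet. Of 20 tested genes of mitochondrial RNA processing, 1 rose and 6 fell in cKO and 3 rose and 4 fell in cHet, so that 35% were called in each genotype, about as many as of all tested genes (34% and 36.1%). Ptcd1, known as a regulator of mitochondrial leucine tRNAs, fell most in both (-1.28 ± 0.14 in cKO and -1.16 ± 0.14 in cHet). Of 77 mitochondrial ribosomal protein genes, 1 rose and 19 fell in cKO and 3 rose and 10 fell in cHet, with fewer called (26% and 16.9%) than of all tested genes. Of 37 electron carriers and assembly factors outside the name rule, 2 rose and 9 fell in cKO and 5 rose and 11 fell in cHet (29.7% and 43.2% called). Tmem126b, a complex I assembly factor, was at 6.59, 7.04 and 6.40 CPM in cKO with Pg, against 12.3, 15.6 and 12.3 CPM in controls (-1.0 ± 0.14), and at 6.47, 5.35 and 6.97 CPM in cHet with Pg, against 11.7, 11.6 and 11.2 CPM in controls (-0.88 ± 0.14). Ttc19, which clears fragments from complex III, rose by 0.76 in cKO and 0.82 in cHet. Cycs, somatic cytochrome c, rose in cHet (0.59 ± 0.11, adjusted p = 0.00039) and had a change of 0.23 ± 0.11 in cKO.

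For enzymes upstream of the chain, the direction of the calls depended on scaling. Of 17 tested genes of pyruvate dehydrogenase and the TCA cycle, 6 rose and 0 fell in cKO and 4 rose and 0 fell in cHet. The rises are 35.3% of the list in cKO, beside 16.9% of all tested genes, and 23.5% in cHet, beside 18%. Called in either direction were 34% of all tested genes in cKO and 36.1% in cHet. With library size alone 0 rose and 3 fell in cKO and 0 rose and 10 fell in cHet. Cs, citrate synthase, was at 135, 146 and 142 CPM in cKO with Pg, against 119, 115 and 117 CPM in cKO controls, and at 137, 140 and 144 CPM in cHet with Pg, against 121, 115 and 112 CPM in cHet controls (0.27 ± 0.06 in each). Some of these rises turned with library size alone, for Dlst and Dld in cKO (-0.02 and -0.05) and for Mdh2 in cHet (-0.01). Carriers and uncoupling genes gave 2 rises of 9 in cKO (22.2%) and 3 of 9 in cHet (33.3%), and 0 rises and 1 fall in each with library size alone. Among 24 genes of mitochondrial stress and turnover, 4 rose and 1 fell in cKO and 5 rose and 2 fell in cHet, which is 20.8% and 29.2% called, below the shares of all tested genes. Sod2, the superoxide dismutase of the matrix, was at 761, 807 and 983 CPM in cKO with Pg, against 507, 539 and 564 CPM in controls (0.66 ± 0.09), and at 962, 809 and 834 CPM in cHet with Pg, against 431, 476 and 460 CPM in controls (0.93 ± 0.09). Hif1a, the oxygen-regulated transcription factor, rose by 0.84 in cKO and 0.99 in cHet.

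Promoters of the nuclear members shared known motifs of respiratory gene regulators. RefSeq promoter windows of 300 bases on GRCm38.p6 (250 before to 50 after the gene start) were matched to 80 of the 97 nuclear members and searched on both strands for 4 motifs, none of which contains another. A gene counted if any of its windows held the motif. The NRF1 motif (GCGCA, any base, then GCGC) was in 26.2% of these members, beside 11.5% of tested genes with a window and 5.19% of all genes with a window. The ETS core CCGGAAG, bound by GABP and other ETS proteins, was in 31.2%, beside 20.4% and 9.93%, the YY1 motif AAGATGGC in 13.8%, beside 5.42% and 3.19%, and the estrogen-related receptor motif TCAAGGTCA in 2.50%, beside 0.325% and 0.466%. At least 1 of the first 3 was in 60% of members with a window, beside 32.8% of tested genes with a window. Of the 13 nuclear members with a window that rose in cHet, 3 held the NRF1 motif, 5 the ETS core, 1 the YY1 motif and 1 the estrogen-related receptor motif. The windows of 3 members with large changes are given, with the motif letters in capitals (on the strand printed or its reverse complement). Atp5k, which rose in cHet (chr5:108434350-108434649, minus strand), holds the NRF1 motif and, reversed, the ETS core. Ndufaf1, which fell in both genotypes (chr2:119662785-119663084, minus strand), holds the ETS core. Cox10, which fell in cHet (chr11:64079423-64079722, minus strand), holds the ETS core and the YY1 motif.
Atp5k: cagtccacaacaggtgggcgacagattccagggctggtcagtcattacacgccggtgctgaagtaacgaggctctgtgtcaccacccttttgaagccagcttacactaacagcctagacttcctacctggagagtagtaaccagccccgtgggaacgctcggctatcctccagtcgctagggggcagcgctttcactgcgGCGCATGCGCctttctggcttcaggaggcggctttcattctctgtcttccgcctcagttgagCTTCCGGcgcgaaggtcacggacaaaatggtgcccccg
Ndufaf1: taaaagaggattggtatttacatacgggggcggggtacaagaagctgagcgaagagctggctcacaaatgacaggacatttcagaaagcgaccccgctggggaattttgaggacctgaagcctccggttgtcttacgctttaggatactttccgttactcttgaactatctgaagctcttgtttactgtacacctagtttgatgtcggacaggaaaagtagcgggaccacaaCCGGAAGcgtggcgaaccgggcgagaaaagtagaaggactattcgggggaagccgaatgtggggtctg
Cox10: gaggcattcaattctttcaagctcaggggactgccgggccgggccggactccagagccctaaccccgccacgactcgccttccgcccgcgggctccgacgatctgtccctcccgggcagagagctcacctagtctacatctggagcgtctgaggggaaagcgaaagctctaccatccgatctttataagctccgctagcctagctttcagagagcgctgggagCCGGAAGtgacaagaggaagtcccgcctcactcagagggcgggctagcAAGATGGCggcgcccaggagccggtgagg

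Overlap between annotated genes could affect few of the named members. In GENCODE M21, 15 of the 108 members share more than 10% of their exon bases with another gene and 61 share none. Cox8a, Cox6b1, Atp5k, Ndufa1 and Ndufaf1 are among those with none, and Cox15 shares 9.15% with Entpd7 and Cutc on the opposite strand. This covers shared positions only. Sequence shared with transcripts from other places was looked up for the mitochondrially encoded genes and not for the nuclear members.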

How the data were processed

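Per the labels' protocols, poly-A RNA was reverse transcribed with random hexamers and sequenced. The submitters' processing notes name fastp, featureCounts 1.5.0-p3, HISAT2 2.0.5 and the build mm10. The table deposited by the authors holds raw counts of reads for each gene, and its columns were matched to samples by title. The sources used here do not state the annotation release, the strand setting or how reads with several matches were handled.

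The count model was run in edgeR 4.0.16 under R 4.3.3: filterByExpr kept 13800 of 54532 genes, libraries were scaled by TMM, 1 mean for each group was estimated from the 12 libraries together, and robust quasi-likelihood F tests with Benjamini-Hochberg adjustment gave 6 comparisons (Pg against control in each genotype, cKO against cHet in each condition, their mean, and the interaction). The SE of a log2 change is that change divided by the root of F. CPM values use TMM-scaled library sizes. The fit was tested on simulated counts with the same spread for all genes and no library that stood apart. That setting differs from these libraries, so the simulation does not show how the fit performs on them. Alternatives were DESeq2 1.42.0, other scalings and filters, a fit of the compared libraries alone, a replicate block and leaving out each library. Of 12 same-number correlations of deviations between groups, 3 exceeded 0.1 (range -0.254 to 0.319). With 1 library apart in each group, these correlations cannot settle whether replicate numbers pair libraries.

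Named genes were all mitochondrially encoded members, up to 8 largest called rises and falls per comparison, up to 3 called genes of smallest p per class (filled to 2 by level), tissue isoforms, genes next to the threshold of 1 CPM, and up to 4 called genes per other list, except that some items are not reported here. Members, lists and tests were chosen with earlier results of these data known. Promoters are RefSeq windows on GRCm38.p6, and transcripts and exons are from GENCODE M21.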

Additional observations from a re-analysis of the deposited data

Results flagged for a closer look

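Acod1, the enzyme that makes itaconate, an inhibitor of complex II, differed between the genotypes in its response to Pg: it was at 1368, 1278 and 1484 CPM in cKO with Pg, against 1476, 1460 and 1621 CPM in cKO controls, and at 1667, 1559 and 1664 CPM in cHet with Pg, against 1139, 1248 and 1251 CPM in cHet controls. The interaction (cKO minus cHet) was -0.57 ± 0.10 on the log2 scale (adjusted p = 0.011). In data outside the protein-coding members, the mitochondrial ribosomal RNA mt-Rnr1 was higher with Pg in cHet by 0.66 ± 0.17 (adjusted p = 0.013). The other ribosomal RNA, mt-Rnr2, with a higher mean level (440 against 214 CPM of the column total), was not among the called rises of either genotype. The mitochondrial tRNA genes mt-Tc and mt-Te were higher with Pg in cHet by 0.56 and 1.35 on the log2 scale, and mt-Tp by 0.53 in cKO and 0.45 in cHet. In cKO, mt-Rnr1, mt-Tc and mt-Te were not among the called rises. Only called rises were looked for among these noncoding mitochondrial genes, so falls are not covered. Of all tested genes, 16.9% rose in cKO and 18% in cHet. These values use TMM scaling. With library size alone the median change of all tested genes moved by -0.243 in cKO and -0.244 in cHet.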

How the results depend on the processing

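DESeq2 size factors and library sizes without the mitochondrially encoded genes kept all 6 counts of called members within 1.5 times of those reported. Library size alone gave 54 called members in cKO with Pg, against 3, and turned the log2 changes of Cox6a1 (-0.0024), Atp5f1 (-0.041), Ndufa4 (-0.024), Mdh2 (-0.0062) and Vdac3 (-0.016) in cHet and of Dlst (-0.023), Dld (-0.054), Gabpa (-0.047) and Vdac2 (-0.058) in cKO. Of the 23 calls in cHet, 5 held under it, and 12 held without any 1 library (Atp5b, Atp5g3, Cox10, Cox15, Cox6a1, Cox6b1, Cox7c, Cox8a, mt-Nd1, mt-Nd6, Ndufa1 and Ndufaf1). Without a filter on low counts 4 members were called between controls of the genotypes, 1 between genotypes under Pg, 3 for the mean genotype difference and 2 for the interaction, and DESeq2 called 2 and 2 for the last pair. With a replicate block, 1 member was called with Pg in cKO and 1 between controls, and the other 4 counts stayed within 1.5 times. By correlation of deviations, 4 of 12 correlated best with their own replicate number, which does not settle whether libraries were paired.

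Leaving out 1 library gave 0 to 4 called members with Pg in cKO, 18 to 23 in cHet, 1 to 2 between controls, 0 to 1 under Pg, 1 to 2 for the mean and 0 to 1 for the interaction. The change of the log2 ratio of mitochondrial to nuclear sum ranged from 0.11 to 0.35 in cKO, 0.12 to 0.41 in cHet, -0.06 to 0.25 between controls, 0.02 to 0.12 under Pg, 0.0045 to 0.16 for the mean and -0.18 to 0.13 for the interaction. As a difference of median log2 changes it was 0.29 in cKO and 0.39 in cHet. A replicate block, or leaving out assembly factors, members under 10 CPM or, chosen after seeing the data, the mitochondrially encoded members under 100 CPM, can hardly move this ratio and says nothing about its stability. With library size alone the nuclear sum averaged 3987 CPM in cKO with Pg and 4675 CPM in cKO controls, and 4063 CPM in cHet with Pg and 4476 CPM in cHet controls, and the mitochondrial sum 12263 CPM in cHet with Pg. As a percent of counts that sum was 1.26% with Pg and 1.25% in controls of cKO, and 1.23% with Pg and 1.11% in controls of cHet. Without assembly factors the nuclear sum averaged 4169, 4106, 4283 and 3949 CPM in the same 4 groups, and the ratio in cHet with Pg 3.13. With members of at least 10 CPM the nuclear sum in cKO with Pg was 4239 CPM and the ratio in cHet with Pg 3.08. The cause of these differences was not tested. Depth limits the members below 3 CPM most, such as Ndufaf6 and mt-Nd4l.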
